A study of Mus musculus with 4 samples.

Results

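The 1000 strongest distal regions of control fibroblastic reticular cells were examined, out of 80351 distal autosomal regions and 110110 accessible regions in all. They were chosen by their own measured levels. Overlapping windows of 300 bp were merged into regions where they lay up to 100 bp apart, and the window with the most counts stood for each region. Regions whose midpoint lay within 5000 bp of either end of a protein-coding RefSeq gene were left out, and the rest were ranked by the mean of both control libraries in CPM, the counts of a window scaled to the library's total over the best windows of all regions. Distal therefore means distant from the outer ends of protein-coding genes, and does not mean distant from every annotated start of transcription.

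The libraries were ATAC-seq libraries of lymph node fibroblastic reticular cells (FRCs), 2 per genotype. All mice were C57BL/6 females of 12 weeks that carried floxed Notch2 (Notch2 fl/fl). The Notch2_cKO mice carried Ccl19-Cre in addition, so that recombination depends on Ccl19 promoter activity, and the control mice were littermates without Cre. Each library pooled brachial, axillary and inguinal nodes of 6 mice, from which 50000 cells were sorted as BP3-high, Pdpn+, CD31- and CD45-. FRCs are the fibroblasts that build the conduit network of the node and supply chemokines and survival factors to lymphocytes. Notch2 is a receptor whose cleaved intracellular part joins the DNA-binding protein Rbpj at regulatory DNA. In ATAC-seq a transposase cuts open chromatin, and the strongest cut sites away from gene ends are known to include enhancers, insulators bound by Ctcf, alternative promoters and promoters of noncoding RNAs. In pooled cells, fewer cells with an open region and less opening per cell cannot be told apart.

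Of the 1000 best windows, 199 (19.9%) lay at an annotated start of transcription, a feature that the ranking did not use. A window was counted at a start when it overlapped, by 1 base or more, the 300 bases around it, 250 before and 50 after, and 165 of the 199 held the start itself. The share at a start was 1.85% of all distal regions, 11.1% of the distal regions of ranks 1001 to 2000 and 75.2% of the 1000 strongest regions near gene ends. In 144 of the 199 the start belonged to a protein-coding gene, and each of these was an internal start of the gene that held or lay nearest to the region. The other 55 lay at starts of noncoding genes alone. No member window overlapped a miRNA hairpin. The rate fell with rank, from 30.0% in ranks 1 to 250 through 20.8% and 17.6% to 11.2% in ranks 751 to 1000.

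Sequences of 11 such windows are shown because starts were most frequent among the strongest members, and some lay at members that changed with genotype. Each is the part of a best window that lies before the annotated start, from RefSeq (GRCm38.p6, the assembly of mm10), on the strand of the gene. Capitals mark matches, on either strand, to short motifs spelled out after the sequences. The first set shows internal starts of protein-coding genes. Dcun1d4 encodes a factor of cullin neddylation (chr5:73490776-73491000, plus strand, rank 10). Ipo5 encodes a nuclear import receptor (chr14:120910944-120911100, plus strand, rank 13). Stag1 encodes a cohesin subunit (chr9:100643251-100643447, plus strand, rank 25). Rbpj encodes the DNA-binding partner of Notch receptors (chr5:53590251-53590485, plus strand, rank 68).
Dcun1d4: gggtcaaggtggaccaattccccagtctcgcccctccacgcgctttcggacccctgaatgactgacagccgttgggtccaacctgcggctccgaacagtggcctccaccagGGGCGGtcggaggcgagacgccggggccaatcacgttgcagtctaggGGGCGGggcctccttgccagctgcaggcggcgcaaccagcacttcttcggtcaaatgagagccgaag
Ipo5: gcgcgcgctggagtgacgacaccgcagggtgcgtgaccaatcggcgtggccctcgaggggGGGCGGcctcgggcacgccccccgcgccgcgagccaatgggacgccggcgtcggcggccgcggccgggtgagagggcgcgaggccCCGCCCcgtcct
Stag1: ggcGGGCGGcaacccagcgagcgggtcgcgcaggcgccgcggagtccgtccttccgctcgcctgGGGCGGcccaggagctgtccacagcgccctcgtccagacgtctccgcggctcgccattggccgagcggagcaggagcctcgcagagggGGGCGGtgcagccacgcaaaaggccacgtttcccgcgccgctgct
Rbpj: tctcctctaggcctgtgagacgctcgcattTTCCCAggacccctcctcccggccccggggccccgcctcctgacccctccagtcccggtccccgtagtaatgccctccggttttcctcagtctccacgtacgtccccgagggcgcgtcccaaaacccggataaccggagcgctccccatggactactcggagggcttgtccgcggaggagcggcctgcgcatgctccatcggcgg

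The next set shows starts of noncoding genes among the strongest members. Gm26901 lies between genes (chr1:7398097-7398200, minus strand, rank 4). Gm29638 starts near Zfp324 (chr7:12949735-12949850, plus strand, rank 12). 1700003G18Rik (chr7:116093150-116093399, minus strand, rank 16) starts inside 1110004F10Rik and opposite an internal start of that gene, so its window is counted among the 144 above.
Gm26901: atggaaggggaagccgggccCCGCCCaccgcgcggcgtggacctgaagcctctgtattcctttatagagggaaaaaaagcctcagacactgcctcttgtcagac
Gm29638: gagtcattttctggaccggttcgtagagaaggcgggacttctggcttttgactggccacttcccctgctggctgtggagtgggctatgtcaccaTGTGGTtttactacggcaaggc
1700003G18Rik: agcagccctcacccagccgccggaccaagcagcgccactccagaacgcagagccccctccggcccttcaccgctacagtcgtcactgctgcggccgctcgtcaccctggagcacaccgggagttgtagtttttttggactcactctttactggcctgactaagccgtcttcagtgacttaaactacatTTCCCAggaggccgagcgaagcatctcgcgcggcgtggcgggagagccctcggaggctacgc

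The last set shows starts at members that differed between genotypes, the first pair lower and the second pair higher in Notch2_cKO. Gnas encodes the alpha subunit of the stimulatory G protein, from an imprinted locus with several promoters (chr2:174329756-174330005, plus strand, rank 71). Gm35381 starts near Mlph (chr1:90909151-90909368, minus strand, rank 685). Gm33560 starts near Ano9 (chr7:141123051-141123230, plus strand, rank 231). D230017M19Rik starts near Pecr (chr1:72243801-72243992, plus strand, rank 568).
Gnas: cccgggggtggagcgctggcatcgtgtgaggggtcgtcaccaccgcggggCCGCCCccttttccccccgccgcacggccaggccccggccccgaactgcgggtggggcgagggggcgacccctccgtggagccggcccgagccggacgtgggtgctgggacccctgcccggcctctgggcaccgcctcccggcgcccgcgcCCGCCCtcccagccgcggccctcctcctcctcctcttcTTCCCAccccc
Gm35381: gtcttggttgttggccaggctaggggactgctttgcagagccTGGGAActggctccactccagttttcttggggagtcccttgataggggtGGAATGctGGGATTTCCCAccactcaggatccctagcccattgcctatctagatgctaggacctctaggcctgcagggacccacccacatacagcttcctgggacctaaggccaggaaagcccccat
Gm33560: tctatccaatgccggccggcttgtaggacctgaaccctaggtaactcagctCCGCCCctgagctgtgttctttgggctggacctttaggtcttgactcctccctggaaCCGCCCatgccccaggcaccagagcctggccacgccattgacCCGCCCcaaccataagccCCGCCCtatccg
D230017M19Rik: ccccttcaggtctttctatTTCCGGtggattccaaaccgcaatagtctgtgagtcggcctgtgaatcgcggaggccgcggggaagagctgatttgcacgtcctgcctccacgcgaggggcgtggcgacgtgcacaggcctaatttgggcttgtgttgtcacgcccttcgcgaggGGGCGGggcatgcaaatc

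Motifs were searched in the 300 bases around each start, 250 before and 50 after, on both strands. The GC box (GGGCGG) stood in 141 of the 199 members' promoters (70.9%), against 32.4% of the promoters in other distal windows, 82.3% of those in the strongest windows near gene ends and 36.0% of 31396 autosomal promoters. The ETS letters (CCGGAA) stood in 26.1%, against 12.2%, 35.2% and 15.1% in the same order. AP-1 letters (TGANTCA) stood in 4.52%, against 12.9%, 3.06% and 7.84%. RUNX letters (TGTGGT) stood in 10.1%, against 17.9%, 8.78% and 16.7%. In each of these 4 motifs the members' share lay between that of the other distal windows and that of the windows near gene ends.

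The RBPJ letters (TGGGAA) stood in 51 of the 199 promoters (25.6%), close to the 25.3% of all autosomal promoters. Their share was 27.5% in other distal windows and 20.2% near gene ends. In 8 of the 51 they overlapped another motif searched, the E-box (CANNTG) not counted. For the TEAD, NF-kappaB and EBF motifs the members' share did not lie between those of the other distal windows and of the windows near gene ends. TEAD letters (GGAATG) stood in 9.05%, against 17.1%, 10.2% and 14.6% of all promoters, and NF-kappaB letters (GGGANTTCC) in 2 promoters (1.01%), against 2.33% and 2.93%. The EBF motif stood in 2.51%, against 1.09% and 1.06%. The longer CTCF motif stood in 4.02% of the members' promoters, against 4.96% in other distal windows, 2.79% near gene ends and 2.47% of all. Median GC content was 64.0% in the members' promoters, 52.7% in those of other distal windows, 64.7% in those near gene ends and 53.0% over all. The median number of CpG dinucleotides was 23, 7, 26 and 7. A match describes the letters only. These counts cover the 199 windows at a start and not the 801 without one, whose sequence was not analysed here.

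Members had mean control levels from 41.5 to 208.6 CPM, with a median of 52.9 CPM. Among all regions 5273 reached the lowest member's level, and those that are no members lay near gene ends or off the autosomes. The median member stood at 53.8 and 52.2 CPM in control 1 and 2, and at 49.3 and 51.6 CPM in Notch2_cKO 1 and 2. In plain CPM both Notch2_cKO medians thus lay below both control medians, while after loess normalization they were 49.2 and 48.1 CPM in control and 47.7 and 51.4 CPM in Notch2_cKO, and the groups overlapped. The counts behind the median member were 1270.5, 1342.5, 1492.5 and 637 per library. Notch2_cKO 2 was therefore the least precise.

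**Figure D1:**
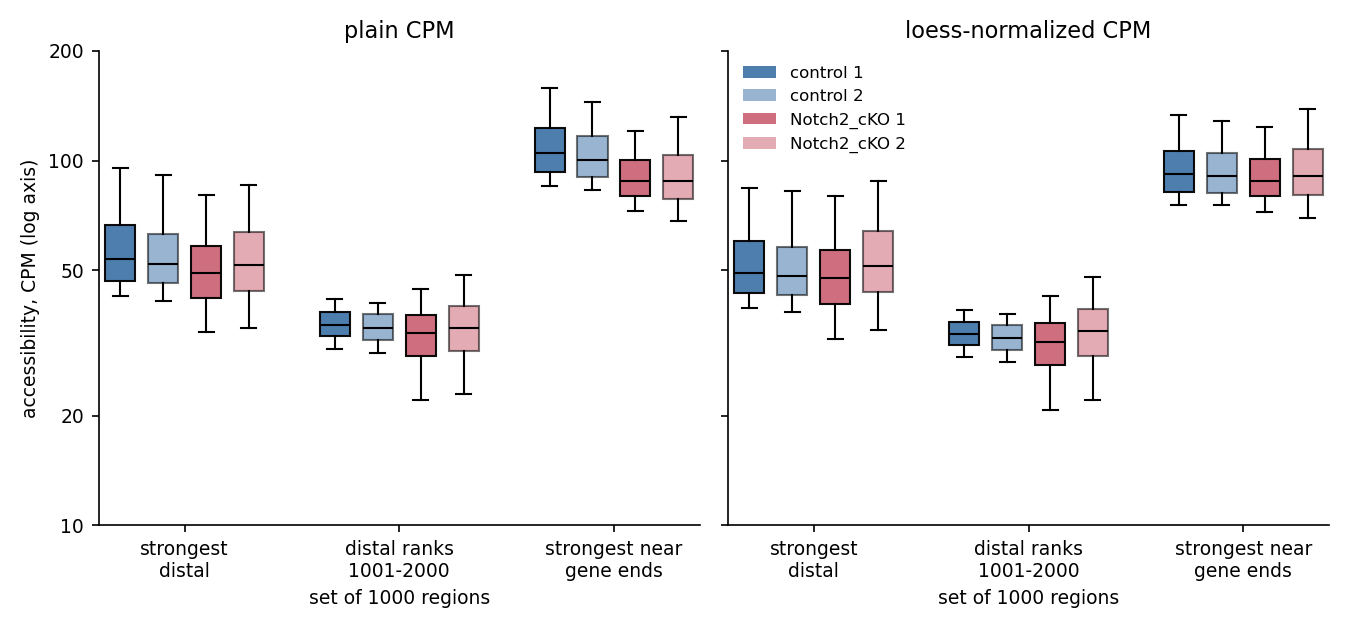
Accessibility of 3 sets of 1000 regions in each of the 4 libraries, in plain CPM (left) and loess-normalized CPM (right), on a log axis. Boxes span the quartiles, lines are medians and whiskers run from the 5th to the 95th percentile of regions. In plain CPM the strongest distal regions have medians of 53.8 and 52.2 in control and 49.3 and 51.6 in Notch2_cKO.

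At the edge of the list the levels were nearly equal, so the limit of 1000 separates no natural group. The region on chromosome 15 from 62903201 to 62903500 had 41.57 CPM (rank 999) and a region inside Creb3l2, a membrane-bound transcription factor gene, had 41.53 CPM (rank 1000). Just outside stood regions inside Rarb, a retinoic acid receptor gene, with 41.51 CPM, and inside Cdh11, a mesenchymal cadherin gene, with 41.50 CPM.

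The 10 strongest members were not led by genes particular to FRCs. The highest lay 45328 bp from Zfp958 on chromosome 8 (4677751 to 4678050), with 222.5 and 194.8 CPM in control and 148.9 and 170.8 CPM in Notch2_cKO. It was a single isolated window of 300 bp, while the median member was 650 bp wide and the lower quartile 600 bp. The next, inside Stard13, lies at the start of the noncoding gene 1700028E10Rik and had 170.6 and 151.5 CPM in control and 134.9 and 148.2 CPM in Notch2_cKO. In plain CPM every control value of both regions was above every Notch2_cKO value, but on the loess-normalized scale the groups overlapped at both. There the Stard13 region had 143.1 and 134.0 CPM in control and 139.5 and 157.0 CPM in Notch2_cKO (log2 0.09).

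The other 8 of these 10 stood between 127.6 and 148.5 CPM in control. Those at Gm26901, Lrif1 and Dcun1d4 lay at annotated starts. Those near Slc2a3, a glucose transporter gene, and Tma16 lay within 10000 bp of the gene. The remaining 3 lay 110174 bp from Ogfrl1, 340464 bp from Rasa1 and 589752 bp from F2rl3. None of the 10 passed the genotype test with loess offsets (edgeR adjusted p from 0.322 to 0.888). With the other scalings 6 to 9 of the 10 passed, all of them lower in Notch2_cKO. Without Notch2_cKO 1, 3 of the 10 passed, and 3 passed without Notch2_cKO 2.

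Members lay somewhat nearer to gene ends than all distal regions did, given as a description with no test. Of the 1000, 495 (49.5%) lay inside a protein-coding gene, against 47.1% of all distal regions. Their median distance from a gene end was 31404.5 bp, against 39160 bp, with 19.8% from 5000 to 10000 bp away, against 13.5%, and 18.9% over 100000 bp away, against 25.7%. The median merged width was 650 bp against 600 bp. At a start the median distance was 14053 bp, and elsewhere it was 35863 bp.

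Chromosomes 11 and 19 held few members. On chromosome 11, 20 of 4419 distal regions were members (0.453%), and on chromosome 19, 2 of 1764 (0.113%). Every other autosome had between 0.959% (chromosome 9) and 1.59% (chromosome 16). The 1000 strongest distal regions of Notch2_cKO gave the same picture, with 18 on chromosome 11 and 0 on chromosome 19. Among regions near gene ends, 1.10% on chromosome 11 and 0.239% on chromosome 19 were among the 1000 strongest, against 2.3% to 6.34% elsewhere. The median distal region also stood lower there, at 2.09 and 1.72 CPM in control, while it stood between 2.54 and 3.26 CPM on the other autosomes. The sequence of these windows was not analysed here.

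**Figure D2:**
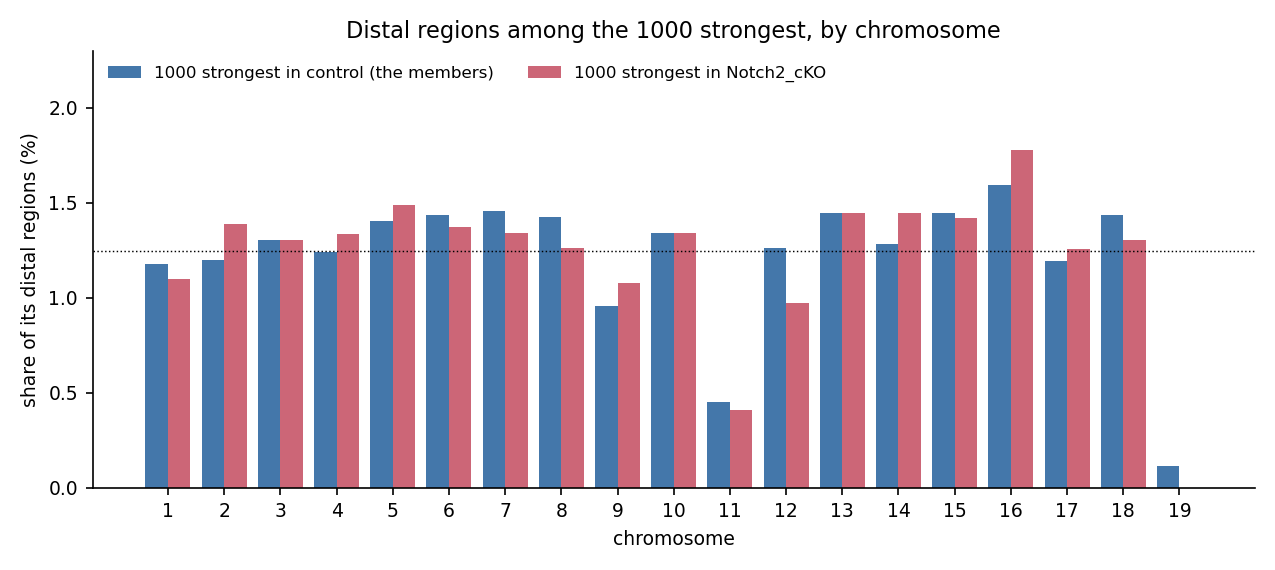
Share of each autosome's distal regions (percent, vertical axis) that is among the 1000 strongest in control (blue) or in Notch2_cKO (red), with a dotted line at the share over all autosomes. Chromosome 11 has 0.453% and 0.407%, chromosome 19 has 0.113% and 0, and the lowest other value in control is 0.959%.

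The libraries largely agreed on which distal regions were strongest. The first control ranked 957 of the 1000 members among its own 1000 strongest distal regions, and so did the second, but these are the libraries that chose them. Notch2_cKO 1 ranked 818 of them there and Notch2_cKO 2 ranked 796. Ranked by the mean of both Notch2_cKO libraries, 825 members (82.5% of each list) were shared, and 980 were among the 2000 strongest. For comparison, the lists of control 1 and control 2 shared 914 regions and those of Notch2_cKO 1 and 2 shared 844, while lists from different genotypes shared 786 to 815.

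The 175 members that left the list stood mostly near its edge, with a median control rank of 827, and 56 of them were called lower. The 175 regions that replaced them had a median control rank of 1325, and 105 of them were called higher. These calls follow in part from how both lists are made.

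Genotype was tested for every region in the table with edgeR's quasi-likelihood test, with offsets fitted by loess on mean level. A call here is an adjusted p under 0.05. Of the 1000 members 62 were higher and 85 lower in Notch2_cKO, together 14.7%. The background was 23.7% of all regions (12.4% higher and 11.3% lower) and 26.7% of all distal regions (13.9% higher and 12.8% lower). It was 23.4% of the distal regions of ranks 1001 to 2000, and 1.9% of the 1000 strongest regions near gene ends. The control levels that chose the members enter the contrast, so the count is given as a description. Only 2 members changed at least 2-fold, both lower, and the median absolute log2 change was 0.12, against 0.17 in the next 1000 distal regions and 0.35 over all distal regions. Between the replicates of 1 genotype the members' median absolute log2 difference was 0.07 in control and 0.18 in Notch2_cKO. The genotypes did not overlap in 47.3% of members on the loess-normalized scale, against 62.3% of all distal regions and 59.8% of all regions.

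**Figure D3:**
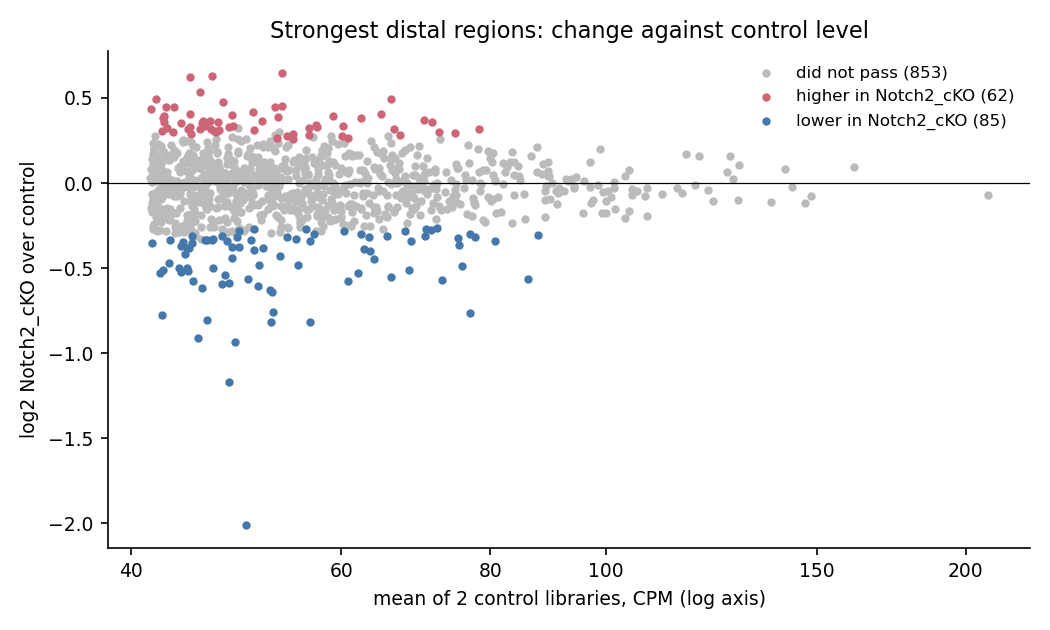
Log2 change of Notch2_cKO over control (vertical axis, loess offsets) against mean control level in CPM (log axis) for the 1000 members. The 62 members called higher and the 85 called lower are coloured, and the largest change is -2.01.

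The split by direction depended on the scaling. Loess offsets hold the median change near 0 at every level by construction, and the members' median was -0.01 on the log2 scale. With scaling to library totals 17 members were higher and 195 lower, with TMM 7 and 286, with DESeq2 size factors 7 and 267, and with median centring 3 and 411. Higher members thus made up 42.2% of calls with loess offsets and 8.02%, 2.39%, 2.55% and 0.725% with those scalings. The members' median change lay 0.18 to 0.19 log2 units below that of all regions under each of those 4 scalings. Each of them applies a constant factor per library, so this difference is nearly the same in all 4 by construction. Members held 5.97% and 5.74% of best-window counts in control and 5.20% and 5.51% in Notch2_cKO, so both controls were higher. The strongest regions near gene ends went the same way, with 11.1% and 10.5% in control and 9.13% and 9.22% in Notch2_cKO, while all distal regions together held 46.2% and 46.1% in control and 47.3% and 49.8% in Notch2_cKO.

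To set members against a control that did not choose them, distal regions were also ranked on 1 control library and compared with the other. In plain CPM, Notch2_cKO lay below control 2 in 697 of the 1000 regions ranked on control 1 (median log2 -0.10), and below control 1 in 770 of those ranked on control 2 (median log2 -0.15). All distal regions had medians of 0.08 and 0.07 in the same comparisons. After loess normalization the medians of the 1000 were 0.01 and -0.02.

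Single libraries moved the counts. Without control 1, 15 members were higher and 31 lower, and without control 2, 9 and 42. Leaving out Notch2_cKO 1 gave 218 higher and 129 lower, and leaving out Notch2_cKO 2 gave 66 and 241, so that the direction of the majority turned with Notch2_cKO 1. With the replicate number as a block 35 were higher and 54 lower, and with the DESeq2 test 21 and 46.

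Calls were fewest at the top of the list. In ranks 1 to 250 they made up 10.8%, in ranks 251 to 500 13.6%, and in each of the next 250-region bands 17.2%, while in ranks 5001 to 10000 they made up 32.2%. The strongest member that passed was the Gnas start at rank 71. Calls were fewest among members at a start of a protein-coding gene. Of these 144, 1 was higher and 4 lower (3.47%), of the 55 at noncoding starts alone 7 were higher and 4 lower (20.0%), and of the 801 with no start 54 were higher and 77 lower (16.4%). The 5 protein-coding starts that passed lay in Gnas, Cic, Msl3l2, Spata13 and Nedd9, named after their values were seen, and of these the Nedd9 start was higher. The difference between these kinds of member was not tested.

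**Figure D4:**
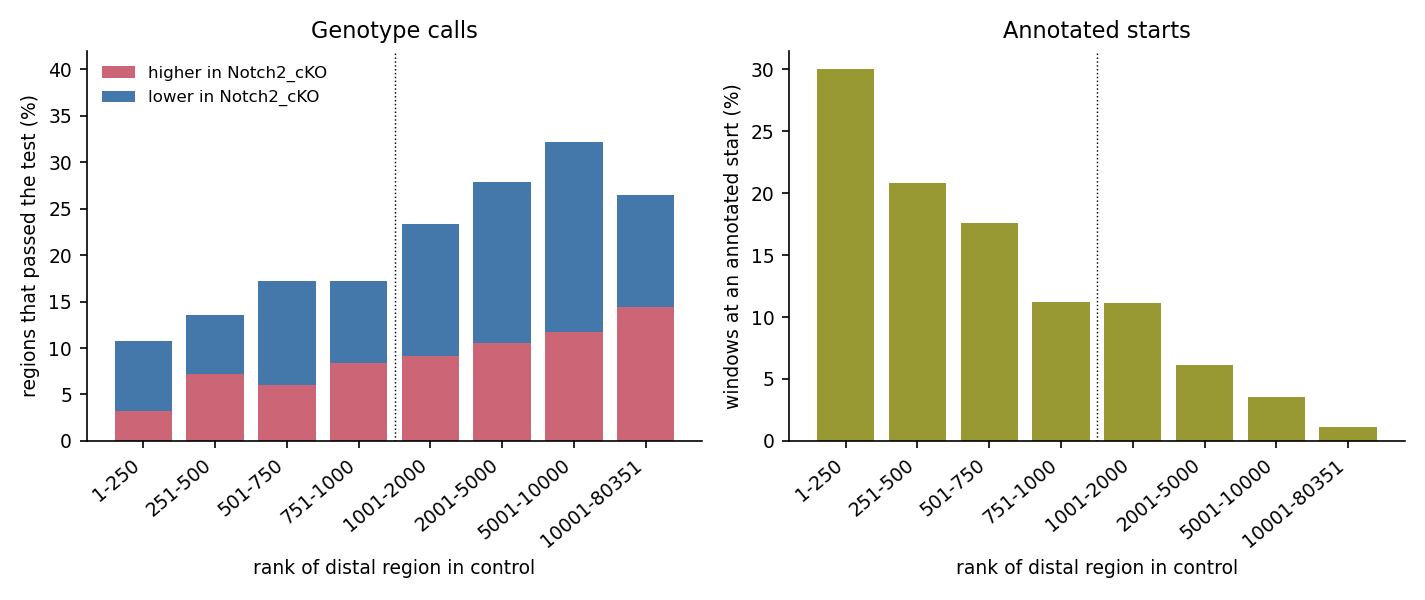
Distal regions in bands of control rank (horizontal axis), with the share that passed the genotype test in each direction (left, percent) and the share whose window lies at an annotated start (right, percent). The dotted line ends the 1000 members. Calls rise from 10.8% to 32.2% and then stand at 26.5% in the last band, and starts fall from 30.0% to 1.16%.

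The largest change among the members was a loss between genes on chromosome 1 (128803401 to 128803700), 211251 bp from Cxcr4, which encodes the receptor for the chemokine Cxcl12. Its loess-normalized level was 51.7 and 42.7 CPM in control and 11.0 and 12.7 CPM in Notch2_cKO. Both controls were far above both Notch2_cKO libraries (edgeR log2 change -2.01 ± 0.13 SE, adjusted p = 7.0e-09). It ranked 602 in control and 9792 in Notch2_cKO. Which gene it acts on is not known from these data.

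Inside Csgalnact1, whose product starts chondroitin sulfate chains, a region on chromosome 8 (68392451 to 68392750) had 46.4 and 44.3 CPM in control and 20.0 and 20.4 CPM in Notch2_cKO. The replicates were close and the groups far apart (edgeR log2 change -1.17 ± 0.11 SE, adjusted p = 3.4e-07). Between genes on chromosome 17 (45260451 to 45260750), 131287 bp from the splicing factor gene Cdc5l, a region had 45.9 and 45.6 CPM in control and 22.6 and 25.7 CPM in Notch2_cKO. It was lower in both Notch2_cKO libraries (edgeR log2 change -0.93 ± 0.11 SE, adjusted p = 4.3e-06).

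Inside Tekt5, a tektin gene of the sperm flagellum, a region on chromosome 16 (10366601 to 10366900) had 42.2 and 43.3 CPM in control and 22.4 and 23.2 CPM in Notch2_cKO (edgeR log2 change -0.91 ± 0.11 SE, adjusted p = 4.9e-06). Inside Ets1, which encodes a transcription factor, a region on chromosome 9 (32672201 to 32672500) had 71.4 and 68.5 CPM in control and 41.8 and 40.5 CPM in Notch2_cKO (edgeR log2 change -0.76 ± 0.09 SE, adjusted p = 6.4e-06). The groups did not overlap in either region. These 5 lower members passed under every scaling, with the replicate block and with any 1 library left out. All 85 lower members also passed under each other scaling, where the members' median change was lower than with loess offsets. Passing under every scaling therefore does not set these 5 apart.

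The members that gained accessibility did so by less than 2-fold. Inside Rab31, which encodes a small GTPase of vesicle traffic, a region on chromosome 17 (65702051 to 65702350) had 42.8 and 42.6 CPM in control and 66.3 and 65.8 CPM in Notch2_cKO. Replicates of each genotype nearly coincided (edgeR log2 change 0.63 ± 0.09 SE, adjusted p = 4.6e-05). Inside Mcc, a gene mutated in colorectal cancers, a region on chromosome 18 (44472651 to 44472950) had 50.3 and 46.6 CPM in control and 70.0 and 82.1 CPM in Notch2_cKO (edgeR log2 change 0.64 ± 0.10 SE, adjusted p = 7.3e-05). Near Fgf23, which encodes a hormone of phosphate balance, a region on chromosome 6 (127057251 to 127057550) had 43.4 and 38.5 CPM in control and 56.5 and 70.3 CPM in Notch2_cKO (edgeR log2 change 0.62 ± 0.11 SE, adjusted p = 0.00031). In all 3 both Notch2_cKO libraries stood above both controls, and all 3 passed under every scaling, with the block and with any 1 library left out.

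Near Mdm1, whose product binds microtubules of the centriole, a region on chromosome 10 (118103251 to 118103550) had 60.4 and 58.3 CPM in control and 80.8 and 86.9 CPM in Notch2_cKO (edgeR log2 change 0.50 ± 0.09 SE, adjusted p = 0.00034). Inside Plekha2, an adaptor gene, a region on chromosome 8 (25070401 to 25070700) had 47.6 and 49.7 CPM in control and 69.2 and 63.7 CPM in Notch2_cKO (edgeR log2 change 0.45 ± 0.09 SE, adjusted p = 0.0013). Groups did not overlap, but the Mdm1 region did not pass with median centring (log2 0.19). The Plekha2 region did not pass with TMM (log2 0.27), DESeq2 size factors (0.28), median centring (0.19) or without control 1 (0.42).

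**Figure D5:**
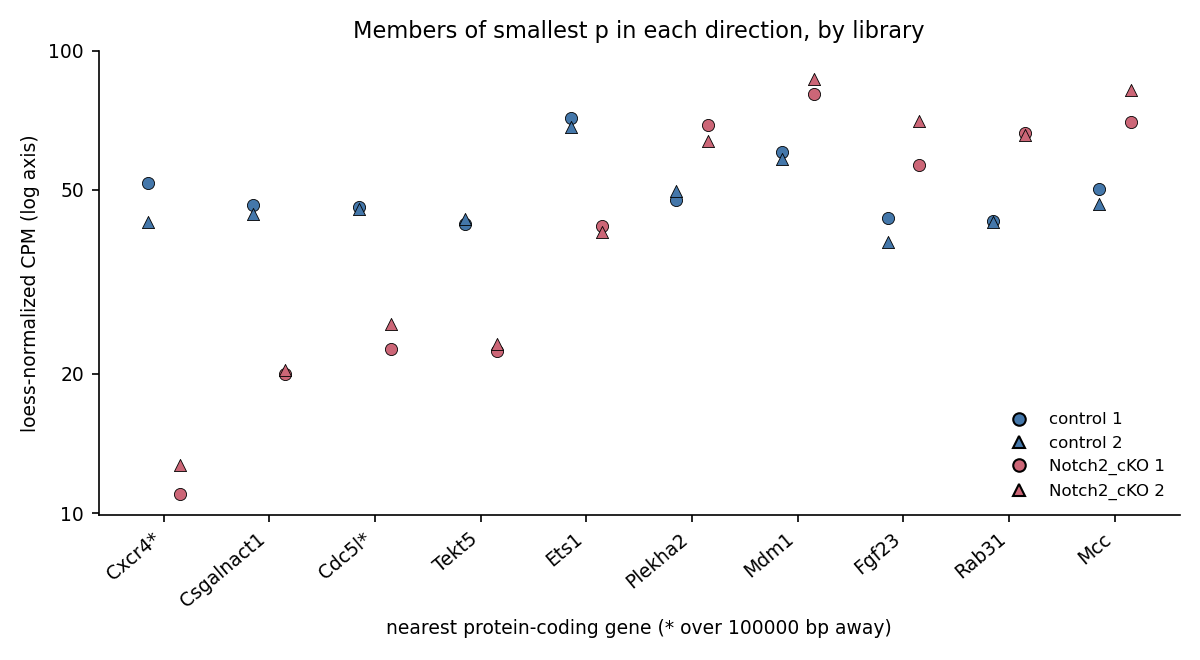
Loess-normalized CPM (log axis) of the 5 lower and 5 higher members of smallest p in each of the 4 libraries. Blue points are control and red points Notch2_cKO, circles are replicate 1 and triangles replicate 2. In each of the 10 regions the genotypes do not overlap, by the rule that chose them.

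At the promoters printed above, changes were small. Those that passed were chosen by smallest p, so their p-values and the separation of the groups are given as a description. The Gnas start had 79.2 and 78.3 CPM in control and 67.5 and 59.4 CPM in Notch2_cKO on the loess-normalized scale (edgeR log2 change -0.31 ± 0.09 SE, adjusted p = 0.017), and did not pass when either control was left out. The Gm35381 start near Mlph had 46.5 and 42.8 CPM in control and 29.2 and 32.5 CPM in Notch2_cKO (edgeR log2 change -0.54 ± 0.11 SE, adjusted p = 0.00086). Both were lower in both Notch2_cKO libraries, and the second passed under every scaling and with the replicate block.

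The Gm33560 start near Ano9 had 58.6 and 61.3 CPM in control and 73.5 and 76.0 CPM in Notch2_cKO (edgeR log2 change 0.32 ± 0.09 SE, adjusted p = 0.012). The D230017M19Rik start near Pecr had 45.0 and 47.9 CPM in control and 55.5 and 60.3 CPM in Notch2_cKO (edgeR log2 change 0.31 ± 0.10 SE, adjusted p = 0.021). Both stood above the controls in both Notch2_cKO libraries. Neither passed with any other scaling or when either control was left out, and the second did not pass with the block.

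Genes were assigned as the gene that holds a region or else the nearest protein-coding gene within 100000 bp. Of the members 867 had such a gene, and they fell to 768 genes, 679 of them with a single member. Against 15 gene lists, 1.24% of distal regions being members, AP-1 and immediate early genes had the highest share, 9 members among 88 distal regions (10.2%). They lay near Fos, Fosb, Jun, Nr4a1, Nr4a2, Klf6 and Ier3, transcription factors and a regulator that cells switch on within minutes of a stimulus, and none of the 9 passed the test. A region 18440 bp from Fos had 63.8 and 69.6 CPM in control and 61.5 and 54.5 CPM in Notch2_cKO. A region 84389 bp from Klf6 had 50.1 and 53.0 CPM in control and 36.6 and 50.1 CPM in Notch2_cKO. In both regions the groups overlapped on the loess-normalized scale.

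NF-kappaB and lymphotoxin receptor genes, the pathway through which lymphotoxin matures FRCs, held 5 members among 99 distal regions (5.05%). The strongest lay inside Nfkbiz, which encodes a nuclear IkappaB protein, with 121.3 and 122.2 CPM in control and 104.1 and 97.8 CPM in Notch2_cKO (rank 14). After loess normalization its groups overlapped. The others lay at both TNF receptor genes, with 2 at Tnfrsf1b and 1 at Tnfrsf1a, and at Tnfaip3, which encodes an inhibitor of the pathway. Of the 5 only the region inside Tnfrsf1a passed, lower (41.9 and 41.9 against 33.5 and 34.2 loess-normalized CPM, log2 -0.31, edgeR adjusted p = 0.031). It did not pass with the replicate block (log2 -0.31) or when either control was left out.

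Notch pathway genes held 4 members among 203 distal regions (1.97%), 3 at Rbpj and 1 at Adam17, whose product sheds the extracellular part of Notch receptors. The Rbpj members were the internal start printed above and 2 others on chromosome 5. The start had 91.7 and 85.9 CPM in control and 67.8 and 69.8 CPM in Notch2_cKO, and its neighbour from 53589101 had 73.1 and 75.6 CPM in control and 65.1 and 56.6 CPM in Notch2_cKO. After loess normalization the start had 81.1 and 77.9 CPM in control and 67.3 and 71.2 CPM in Notch2_cKO. Its neighbour had 65.4 and 68.9 CPM in control and 64.0 and 57.3 CPM in Notch2_cKO. Both were thus lower in both Notch2_cKO libraries on either scale, but neither passed with loess offsets (log2 -0.20 and -0.14, edgeR adjusted p = 0.10 and 0.29). The member 46129 bp outside the gene had 61.9 and 58.6 CPM in control and 50.5 and 57.9 CPM in Notch2_cKO. The region inside Adam17 had 43.9 and 39.5 loess-normalized CPM in control and 26.6 and 32.3 in Notch2_cKO and passed (log2 -0.52, edgeR adjusted p = 0.0026), though not without control 1 (log2 -0.45).

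Mesenchymal transcription factor genes held 12 members among 731 distal regions (1.64%), at Tbx15, Bach2, Cebpb, Nfia, Nfib, Meox2 and Tcf4. Of these 12, 3 lay at Bach2, which is also a repressor gene of lymphocytes. The strongest of the 12 lay inside Tbx15, a T-box gene, with 74.6 and 74.4 CPM in control and 57.9 and 67.2 CPM in Notch2_cKO. Of the 12 only 1 of the pair inside Tcf4, a helix-loop-helix factor gene, passed. It had 44.5 and 45.6 loess-normalized CPM in control and 28.3 and 32.0 in Notch2_cKO (log2 -0.59, edgeR adjusted p = 0.00037). It passed under every scaling and with the replicate block. The Tcf4, Tnfrsf1a and Adam17 regions are named after their values were seen.

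Lists of genes that separate FRC zones held few members each, and differences between these lists were not tested. T-zone reticular genes, among them Pdpn, had 101 distal regions and no member, and their strongest region ranked 1126, near Pdpn. At the share of members over all distal regions given above, a list of this size would hold few. B-zone genes had 3 members among 67 distal regions (4.48%), 2 at Enpp2, which encodes the lysophospholipase autotaxin, and 1 near the follicular chemokine gene Cxcl13. The Enpp2 region on chromosome 15 (54809401 to 54809700) had 71.6 and 68.1 loess-normalized CPM in control and 77.5 and 97.5 in Notch2_cKO and was called higher (edgeR log2 change 0.32 ± 0.10 SE, adjusted p = 0.025). Its Notch2_cKO replicates lay further apart than the groups did, and it passed under no other scaling, with a log2 change of -0.0048 under median centring. It also did not pass without control 1, control 2 or Notch2_cKO 2.

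Medullary genes had 3 members among 61 distal regions (4.92%), at Adamts1, a metalloproteinase gene, and Nr4a1, and none passed. The 2 members at Nr4a1 are the same that are counted among the AP-1 and immediate early genes above. Adventitial fibroblast genes had 2 among 132 (1.52%). The member inside Col15a1, a basement membrane collagen gene, had 47.7 and 46.3 loess-normalized CPM in control and 57.7 and 63.5 in Notch2_cKO and was called higher (edgeR log2 change 0.36 ± 0.09 SE, adjusted p = 0.0081). It passed under no other scaling, and not when either control was left out. Near Cd34 the groups overlapped.

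Matrix genes had 6 members among 434 distal regions (1.38%), at Thbs1, Tnc, Col1a2 and Sparc, and BMP and Wnt genes had 3 among 310 (0.968%), near Bmp5, Wnt11 and Id2, a target of BMP signalling. None of these 9 passed. The region 47608 bp from Id2 came closest, with 48.7 and 41.8 CPM in control and 32.0 and 38.6 CPM in Notch2_cKO (log2 -0.31, edgeR adjusted p = 0.061). Mural cell genes had 2 members among 58, inside Myh11 and near Des, and YAP and TEAD genes had 1 among 118, near Tead4, at 108.0 and 104.1 CPM in control (rank 24). The lists of endothelial genes (121 distal regions), leukocyte genes (53) and housekeeping genes (35) had no member, and the best region of the leukocyte list ranked 5131. Lists of these sizes would hold few members at the share over all distal regions. The leukocyte list does not hold every gene of leukocytes. Members near Klrb1c, Klrb1b and Cd69, genes outside the list, are described below.

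The gene with the most members was Ppm1h, which encodes a protein phosphatase, with 4 among its 33 distal regions. They stood at 44.0, 56.0, 67.9 and 75.03 CPM in control, and 3 of them lay within 10000 bp of each other, the largest such group. The weakest of the 4 was called lower, with 39.5 and 42.7 loess-normalized CPM in control and 32.6 and 30.8 in Notch2_cKO (edgeR log2 change -0.37 ± 0.10 SE, adjusted p = 0.013). The other 3 did not pass, and the lower one did not pass when either control was left out. Of the 1000 members 61 lay in 30 such groups.

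Another 8 genes had 3 members each. At Ets1 the 3 stood inside the gene at 57.9, 76.9 and 100.9 CPM in control, and the middle one was the lower member described above. The strongest had 102.3 and 99.5 CPM in control and 93.4 and 72.3 CPM in Notch2_cKO, a spread between Notch2_cKO replicates larger than the difference of the groups on the loess-normalized scale. At Chd2, a chromatin remodeller gene, the strongest of the 3 lay at the start of the noncoding gene Chaserr, with 84.1 and 83.4 CPM in control and 69.9 and 72.6 CPM in Notch2_cKO, and did not pass.

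The Chd2 member farthest from the gene was called lower (64.8 and 63.5 against 54.1 and 52.0 loess-normalized CPM, log2 -0.27, edgeR adjusted p = 0.034), though not with the replicate block (log2 -0.27) or when either control was left out. At Zswim6 the strongest had 110.4 and 105.8 CPM in control and 76.5 and 88.3 CPM in Notch2_cKO and did not pass. The weakest, at a noncoding start, was called higher (40.04 and 41.2 against 49.5 and 54.7 loess-normalized CPM, log2 0.36, edgeR adjusted p = 0.012), though under no other scaling and not when either control was left out.

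Klrb1c, a gene of the natural killer receptor cluster on chromosome 6, had 3 members among only 7 distal regions, named after its values were seen. They stood at 43.7 to 93.5 CPM in control, and none passed. The same cluster held a member near Klrb1b and 2 near Cd69, all without a call. In the strongest, from 128764151, control had 94.8 and 92.2 CPM and Notch2_cKO had 76.2 and 91.2 CPM, so the groups overlapped after loess normalization. The remaining genes with 3 members were Itpr1, a calcium channel gene, Bach2, a repressor gene of lymphocytes, and Fmn1, a formin gene.

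Notch2 itself had no member. Its strongest distal region, inside the gene, ranked 4427 and was called higher (log2 0.44, edgeR adjusted p = 0.014). In all, 17 regions lay in or near Notch2, of which 5 were called higher and 1 lower (log2 -0.79). Over all regions 23.7% were called, 12.4% higher and 11.3% lower. The largest gain (log2 1.44) was at a weak region, with 1.35 and 1.28 CPM in control and 4.00 and 3.48 CPM in Notch2_cKO. The region at the Notch2 start had 57.6 and 59.3 CPM in control and 54.1 and 43.9 CPM in Notch2_cKO (log2 -0.14, edgeR adjusted p = 0.34). Because the labels do not give the floxed part of the gene, these values do not check the deletion. Best-window totals ran from 12340742 counts in Notch2_cKO 2 to 30260067 in Notch2_cKO 1.

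Markers were summed over regions within 1000 bp of gene ends. FRC markers, 9 of 12 with a region, had 183 to 192 CPM in control and 181 to 197 CPM in Notch2_cKO, and Ccl19, Ccl21a and Pdgfra were not analysed here. Mural markers (7 of 8) had 122 to 124 CPM in control and 96.8 to 99.3 CPM in Notch2_cKO. Blood endothelial markers (2 of 6) had 12.1 to 12.4 CPM in control and 11.0 to 11.8 CPM in Notch2_cKO. Lymphatic endothelial markers (2 of 7) had 25.3 to 27.0 CPM in control and 29.4 to 29.7 CPM in Notch2_cKO. The groups did not overlap in the mural set or in either endothelial set. For single regions, on the loess-normalized scale, the genotypes did not overlap in 59.8% of all regions. The marker sums are in plain CPM, on which the strongest regions near gene ends were lower in Notch2_cKO. T cell markers (2 of 6) had 12.0 to 16.2 CPM and myeloid markers (2 of 6) 2.64 to 4.05 CPM over all libraries, with overlapping groups. No B cell marker had a region. The part of mural or endothelial cells in the members' changes was not tested.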

How the data were processed

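ATAC-seq counts of 4 libraries were used, 2 control and 2 Notch2_cKO pools. The submitters' processing notes list the build mm10, the aligner Bowtie2 2.4.5, the trimmers Trim Galore 0.6.7 and cutadapt, and Picard 2.27.5, deepTools and SAMtools 1.14. Any transposase shift, window filter or peak caller is not given in the sources read. The labels call the table loess-normalized in csaw, but the values the authors deposited are whole-number counts with unequal library totals, and they were used as counts.

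The 678058 windows gave 110110 regions, and 21896 protein-coding RefSeq genes set the distances. edgeR 4.0.16 (R 4.3.3) fitted genotype alone over all regions, with csaw-style loess offsets from limma 3.58.1 and Benjamini-Hochberg adjustment over all regions. The standard error (SE) is the absolute log2 change divided by the root of edgeR's F. Loess-normalized CPM are CPM after these offsets. DESeq2 1.42.0, limma-trend, other scalings, filters, cut-offs and list sizes and a replicate block were alternatives. The fit was tested on simulated data. Python 3.11.15 with numpy 2.4.6, pandas 2.3.3 and matplotlib 3.10.9 did the rest.

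Replicates are separate pools, and with 2 per group p-values measure the spread between pools only. The members and the 15 gene lists were chosen with earlier results of these data known. The rule for named regions took the 10 strongest members, in each direction the 5 of smallest p whose genotypes did not overlap, up to 3 strongest per list, the 5 genes with most members and the 2 regions on each side of the threshold. The printed starts of changed members were chosen apart from this rule, by smallest p in each direction. A planned exact permutation test of the members' share of counts cannot go below p = 0.333 with 2 against 2 libraries, and it is not used because the ranking used the control levels. Motifs of windows without an annotated start were not analysed here.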

Additional observations from a re-analysis of the deposited data

How the results depend on the processing

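Leaving out 1 library gave 8856 to 15579 higher and 8035 to 14677 lower regions over the whole table, against 13698 and 12405. Counts there also moved with the DESeq2 test (6977 and 5245), an adjusted p under 0.01 (8495 and 7079) and a 2-fold minimum (6042 and 4861). Among the members, against 62 higher and 85 lower, leaving out 1 library gave 9 to 218 and 31 to 241, scaling to totals 17 and 195, TMM 7 and 286, DESeq2 size factors 7 and 267, median centring 3 and 411, the DESeq2 test 21 and 46, an adjusted p under 0.01 20 and 45, a 2-fold minimum 0 and 2, 500 members 26 and 35, 2000 members 153 and 228, and ranking on all 4 libraries 101 and 54. The replicate block gave 35 and 54, all among the calls without it. Between control 1 and Notch2_cKO 1 the correlation of deviations was -0.15 over all regions and -0.48 over the members. With 2 libraries per genotype it cannot decide whether replicate numbers pair the samples. The crossed pairing, added after the data were seen, gave 113 higher and 163 lower members. The members' median log2 change of -0.01 became -0.13 with totals, -0.19 with TMM, -0.18 with DESeq2 size factors and -0.27 with median centring, and -0.065 to 0.049 with 1 library left out. With 500 regions per list 79.6% were shared between genotypes, against 82.5%. The Enpp2 region turned to -0.0048 with median centring. Limma-trend, the filter on low levels, other distances from gene ends, a wider merge and members with no annotated start kept both counts within 1.5 times. Scalings other than loess leave any trend of change with level in place. For other settings the cause was not tested. Motif and GC checks of all windows need a genome and were not run.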
